A study of Homo sapiens with 2 samples.

Results

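This account covers 43 genes of DNA replication and homologous repair in Hep3B, an established line of human hepatocellular carcinoma cells. They were chosen by symbol from the 11511 genes with values in a deposited RNA-seq table, and all 43 had a value in both libraries. The libraries were 1 of cells treated with 25 µM A4368, a compound known here only by that code, for 24 h, and 1 of cells given no treatment. Neither the vehicle nor the sequencing depth is stated in the labels. Levels are in FPKM, a fragment count scaled to transcript length and to the mapped fragments of the library. With 1 library of each kind there is no spread between cultures and no test, so every difference below is one between these libraries, and the values are single measurements without an error. In bulk RNA, a smaller share of cells in S phase and less RNA per cell cannot be told apart.

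Of the 43 genes, 29 act mainly in replication and 14 mainly in repair. Replication begins in G1, when the origin recognition complex, CDC6 and CDT1 load the MCM2 to MCM7 ring onto DNA as an inactive helicase. At the start of S phase, CDC45 and the GINS complex join that ring to form the active helicase, and polymerases with the PCNA clamp copy the strands. Homologous repair mends double-strand breaks and stalled forks by copying the sister strand, with BRCA1, BARD1, PALB2 and BRCA2 guiding strand exchange and the Fanconi proteins acting at crosslinks. Many genes of both processes are switched on together by E2F transcription factors as cells pass from G1 into S phase.

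Because E2F sites are the best known shared element of these genes, promoters of some genes that held an E2F-type match are shown first. The RefSeq promoter table (GRCh38.p14, 250 bases before to 50 bases after the start of each gene) had entries for 39 of the 43 genes, MCM4, MCM5, CCNE2 and FANCI not among them. An E2F-type core was searched on both strands as TTNNCGC in which each N had to be C or G. Matches on opposite strands can overlap. The capitals mark the matches that lie whole inside a window. MCM2, MCM3, MCM6, MCM7 and POLE2 had lower values with A4368, while E2F1 and CDT1, shown for contrast, lay within 0.1 log2 units of no difference. The windows are 100 bases before the start site, or for MCM6 a stretch of that length a little further upstream, and for MCM2 and POLE2 30 bases around a match at the start site.
MCM2, chr3:127598404-127598433, plus strand: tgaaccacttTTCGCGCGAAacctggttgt
MCM3, chr6:52284743-52284842, minus strand: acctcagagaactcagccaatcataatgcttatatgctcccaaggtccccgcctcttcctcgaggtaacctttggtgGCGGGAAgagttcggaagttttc
MCM6, chr2:135876505-135876604, minus strand: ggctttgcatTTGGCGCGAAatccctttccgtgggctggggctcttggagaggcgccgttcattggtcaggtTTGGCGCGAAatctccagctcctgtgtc
MCM7, chr7:100101398-100101497, minus strand: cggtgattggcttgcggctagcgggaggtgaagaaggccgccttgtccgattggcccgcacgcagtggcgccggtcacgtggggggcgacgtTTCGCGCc
POLE2, chr14:49688200-49688229, minus strand: tgcggcggtgGCGCCAAatcgcaaatatgg
E2F1, chr20:33686386-33686485, minus strand: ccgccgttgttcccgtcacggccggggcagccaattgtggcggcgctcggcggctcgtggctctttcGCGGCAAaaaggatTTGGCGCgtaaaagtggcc
CDT1, chr16:88803689-88803788, plus strand: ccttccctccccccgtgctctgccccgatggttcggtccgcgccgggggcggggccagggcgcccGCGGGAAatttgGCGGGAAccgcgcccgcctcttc

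These letters occurred in 19 of 26 replication promoters (73.1%) and in 9 of 13 repair promoters (69.2%). They occurred in 13.1% of all 27305 promoters of the table and in 21.4% of the 8853 promoters of genes averaging 1 FPKM or more over the libraries. All 4 promoters of MCM2 to MCM7 genes with an entry held them, and that of MCM10 did not. The promoter of PALB2, which also had a lower value with A4368, held 0 matches and is not shown. The E2F1 and CDT1 promoters also held them, and their genes did not differ between the libraries in the same way. A match describes the letters only.

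Most of the 43 genes differed little between the libraries. The ratio of each gene was taken as log2 of the A4368 value plus 1 FPKM over the control value plus 1 FPKM, which shrinks the ratios of weakly expressed genes. By this log2 ratio, 27 of the 43 genes (62.8%) lay within 0.1 units of 0, against 38.6% of the 11238 genes that averaged 1 FPKM or more. A limit of 1.2-fold on the same scale was passed downward by 5 genes, MCM2, MCM3, MCM7, POLE2 and PALB2, and upward by 0. Over all 11238 genes, 11.1% were lower and 11.2% were higher by 1.2-fold. The 5 of 43 lower genes are therefore close to the background share, whereas 0 higher genes is below it. With the libraries set to equal sums over all but the 50 highest genes (called the rescaling here), POLE2 alone of these 5 still passed the limit, which 9.62% of all genes then passed downward. No member passed 1.5-fold on this scale, a limit that 2.12% of all genes passed downward and 1.08% upward.

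**Figure D1:**
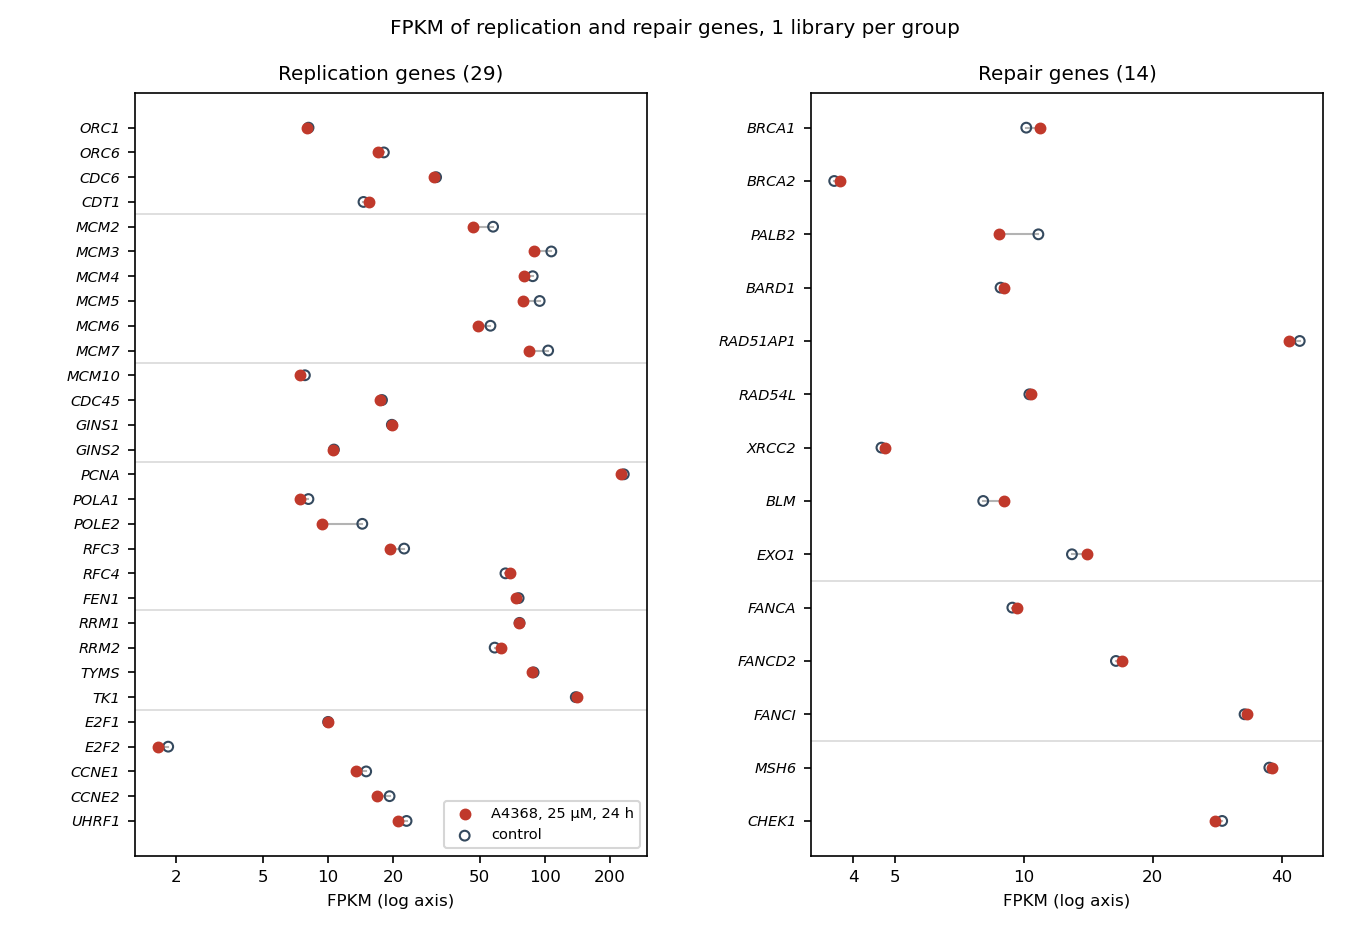
FPKM on a log axis for each of the 29 replication genes and 14 repair genes, with filled points for the A4368 library and open points for the control library. Lines part the roles. The 6 MCM2 to MCM7 genes all stand lower with A4368, and POLE2 and PALB2 have wide gaps, while most other pairs of points nearly coincide.

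The 6 genes of the MCM2 to MCM7 ring, the helicase that opens the double strand ahead of the fork, were all lower with A4368. MCM2 was at 46.5 FPKM with A4368 and 57.8 FPKM in the control, a log2 ratio of -0.31. MCM7, which also hosts a microRNA cluster in an intron, was at 84.7 FPKM with A4368 and 104 FPKM in the control, a log2 ratio of -0.29. MCM3 was at 88.8 FPKM with A4368 and 107 FPKM in the control, a log2 ratio of -0.27. These 3 subunits were the ones past the limit of 1.2-fold, which lies at 0.26 log2 units. MCM5 missed it narrowly at 79.6 FPKM with A4368 and 94.7 FPKM in the control (log2 ratio -0.25). MCM6 was at 49.0 FPKM with A4368 and 56.2 FPKM in the control (log2 ratio -0.19). MCM4 differed least, at 80.4 FPKM with A4368 and 88.0 FPKM in the control (log2 ratio -0.13).

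The subunits thus differed by 8.61% to 19.5% of the control value, all downward. Their summed level was 429 FPKM with A4368 and 507 FPKM in the control, 15.5% lower, and their median log2 ratio was -0.26. Most genes at this level of expression also differed little: of the 870 genes with a mean between those of the lowest and highest of the 6, 59.3% were lower, 9.89% were lower by 1.2-fold, and the median log2 ratio was -0.03. Any single MCM gene was not extreme, since 8.54% of all 11238 genes had a lower ratio than MCM2 and 25.1% had a lower ratio than MCM4. All 6 stayed below 0 in each of the 8 alternative scalings, filters and corrections run on single genes, of which the filters could not alter their ratios. MCM2 shares 20.8% of its sequence words with other annotated genes, and MCM7 shares 7.43% with AP4M1, a gene on the opposite strand that overlaps it. AP4M1 was itself lower, at 12.7 FPKM with A4368 and 16.3 FPKM in the control.

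The factors that load this ring did not share its difference. CDT1, the loader that is destroyed once S phase begins, was at 15.5 FPKM with A4368 and 14.6 FPKM in the control. CDC6, the ATPase that recruits CDT1 and the ring to origins, was at 30.98 FPKM with A4368 and 31.54 FPKM in the control. ORC1, the largest subunit of the origin recognition complex, was at 8.04 FPKM with A4368 and 8.14 FPKM in the control. ORC6, its smallest subunit, was at 17.0 FPKM with A4368 and 18.1 FPKM in the control, a log2 ratio of -0.09. The median log2 ratio of these 4 licensing genes was -0.02, and none passed 1.2-fold.

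The genes that turn the loaded ring into an active helicase were also nearly level. CDC45, which bridges the ring and GINS, was at 17.4 FPKM with A4368 and 17.8 FPKM in the control. GINS1 was at 19.8 FPKM with A4368 and 19.7 FPKM in the control, and GINS2 at 10.5 FPKM with A4368 and 10.7 FPKM in the control. MCM10, which despite its name is not part of the ring and acts when it fires, was at 7.42 FPKM with A4368 and 7.83 FPKM in the control (log2 ratio -0.07). The 4 ratios spanned 0.08 log2 units around a median of -0.03. The highest ratio among the ring genes, -0.13 for MCM4, was thus below the lowest among the loaders and activators, -0.09 for ORC6, in these libraries and without a test. The order was lost when ratios were centred on genes of the same level, where MCM4 was at -0.09, ORC6 at -0.12 and MCM10 at -0.12.

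Among the genes of DNA synthesis at the fork, POLE2 had the lowest ratio of all 43. POLE2, the second subunit of the leading-strand polymerase epsilon, was at 9.35 FPKM with A4368 and 14.4 FPKM in the control, a log2 ratio of -0.57. Only 2.22% of all genes had a lower ratio. The plain ratio was 1.54-fold, while the pseudocount kept the log2 value just short of 1.5-fold. The other subunits did not share this difference. POLE, the catalytic subunit, was at 19.6 FPKM with A4368 and 17.4 FPKM in the control. POLE3 was at 45.0 FPKM with A4368 and 49.1 FPKM in the control, and POLE4 at 46.5 FPKM with A4368 and 44.8 FPKM in the control.

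The sliding clamp was at a similar level in both libraries, and its partners varied. PCNA, the clamp that tethers polymerases, was the most abundant of the 43 genes, at 224 FPKM with A4368 and 231 FPKM in the control. FEN1, the nuclease that trims Okazaki fragments, was at 73.7 FPKM with A4368 and 75.8 FPKM in the control. Of the clamp loader, RFC3 was at 19.3 FPKM with A4368 and 22.5 FPKM in the control (log2 ratio -0.21), whereas RFC4 was at 68.9 FPKM with A4368 and 65.9 FPKM in the control (log2 ratio 0.07). POLA1, the catalytic subunit of the polymerase that starts each new strand with primase, was at 7.46 FPKM with A4368 and 8.13 FPKM in the control (log2 ratio -0.11).

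The enzymes that supply DNA building blocks were abundant and level. TK1, the thymidine salvage kinase, was at 140.4 FPKM with A4368 and 139 FPKM in the control. TYMS, which makes thymidylate and is the target of fluorouracil, was at 87.2 FPKM with A4368 and 88.8 FPKM in the control. TYMS overlaps ENOSF1 on the opposite strand over 58.2% of its exonic bases, and reads of such partners cannot be told apart when the strand of the library is not known. ENOSF1 was at 13.8 FPKM with A4368 and 11.4 FPKM in the control. Of ribonucleotide reductase, the large subunit RRM1 was at 76.0 FPKM with A4368 and 76.5 FPKM in the control. The S phase small subunit RRM2 was at 63.0 FPKM with A4368 and 58.7 FPKM in the control, the highest log2 ratio of the replication genes at 0.10, and it shares 23.0% of its sequence words with other genes.

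The regulators of S phase entry were lower by small amounts, none by 1.2-fold. CCNE1 and CCNE2 encode the E cyclins that activate CDK2 at the G1 to S transition. CCNE2 was at 16.9 FPKM with A4368 and 19.2 FPKM in the control (log2 ratio -0.18), and CCNE1 was at 13.5 FPKM with A4368 and 15.0 FPKM in the control (log2 ratio -0.15). CCNE2 overlaps INTS8 on the opposite strand over 47.5% of its exonic bases, and INTS8 was at 22.3 FPKM with A4368 and 17.6 FPKM in the control. UHRF1, which guides maintenance DNA methylation behind the fork, was at 21.0 FPKM with A4368 and 23.0 FPKM in the control (log2 ratio -0.13). UHRF1 shares 27.3% of its sequence words with other annotated genes. E2F1, an activator E2F, was at 9.98 FPKM with A4368 and 10.02 FPKM in the control. E2F2 was the scarcest of the 43 genes, at 1.65 FPKM with A4368 and 1.83 FPKM in the control.

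**Figure D2:**
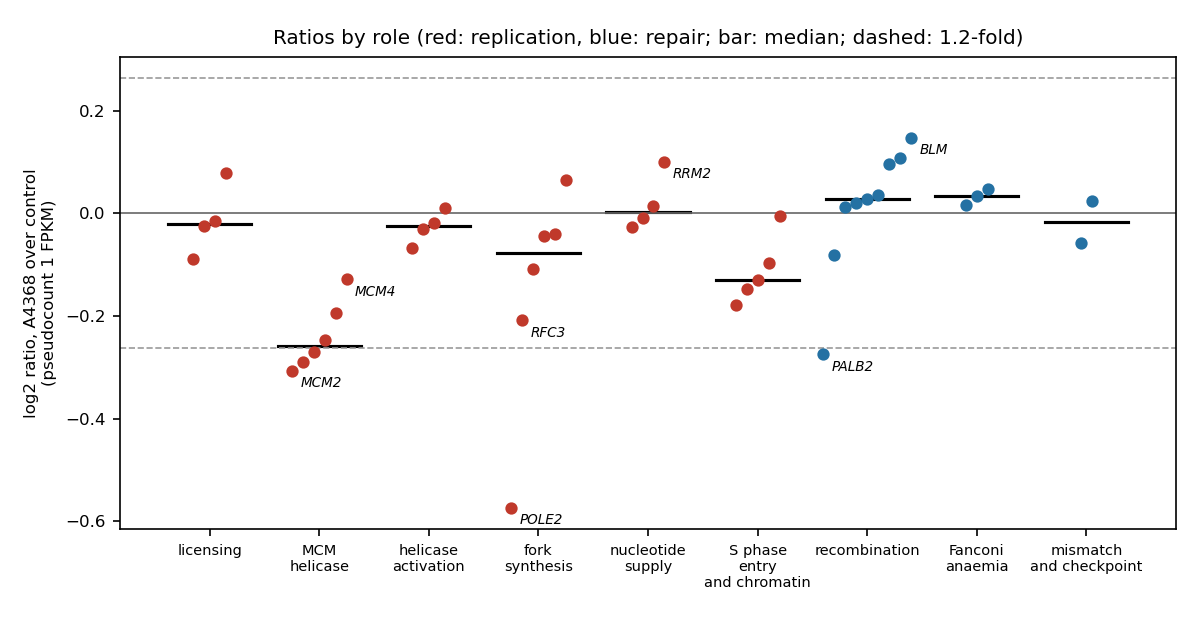
The log2 ratio of A4368 over control with a pseudocount of 1 FPKM for each gene, grouped by role, in red for replication and blue for repair, with a bar at each role's median and dashed lines at 1.2-fold. The MCM helicase genes lie between -0.31 and -0.13, and their median is the lowest of the roles. The S phase entry genes CCNE1, CCNE2 and UHRF1, the fork gene RFC3 and the repair gene PALB2 lie within that range, and POLE2 at -0.57 lies below it.

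Repair genes were nearly level, and most were slightly higher with A4368. BRCA1, the ubiquitin ligase that starts homologous repair with its partner BARD1, was at 10.9 FPKM with A4368 and 10.1 FPKM in the control (log2 ratio 0.10). BARD1 was at 9.02 FPKM with A4368 and 8.83 FPKM in the control. BRCA2, which acts in strand exchange, was at 3.72 FPKM with A4368 and 3.61 FPKM in the control. PALB2, the adaptor that joins BRCA1 to BRCA2, was the exception, at 8.77 FPKM with A4368 and 10.8 FPKM in the control, a log2 ratio of -0.27. It was the only repair member past 1.2-fold, a limit it no longer passed after the rescaling (log2 ratio -0.24). Of all genes, 10.4% had a lower ratio than PALB2.

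The genes of strand pairing and of the later steps had small ratios. RAD51AP1, a cofactor in strand pairing, was the most abundant of the repair members at 41.6 FPKM with A4368 and 44.1 FPKM in the control (log2 ratio -0.08). RAD54L, a motor protein that acts during strand exchange, was at 10.4 FPKM with A4368 and 10.3 FPKM in the control. RAD54L overlaps LRRC41 on the opposite strand over 18.0% of its exonic bases. XRCC2, another strand exchange factor, was at 4.73 FPKM with A4368 and 4.65 FPKM in the control. BLM, the helicase that resolves joint molecules and assists end resection, had the highest log2 ratio of the 43 at 0.15, with 9.01 FPKM with A4368 and 8.04 FPKM in the control. EXO1, the nuclease that resects broken ends and also acts in mismatch repair, was at 14.04 FPKM with A4368 and 12.96 FPKM in the control (log2 ratio 0.11).

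The Fanconi genes among the repair members, FANCA, FANCD2 and FANCI, were level to within 0.05 log2 units as deposited. After the rescaling they lay between 0.07 (FANCI) and 0.10 (FANCD2). FANCD2 and FANCI form the pair that is ubiquitinated at crosslinks. FANCD2 was at 17.0 FPKM with A4368 and 16.4 FPKM in the control, and FANCI at 33.1 FPKM with A4368 and 32.8 FPKM in the control. FANCA, of the core ligase complex, was at 9.64 FPKM with A4368 and 9.41 FPKM in the control, and it overlaps ZNF276 over 22.4% of its exonic bases. The core complex as a whole, 8 genes with FANCA, was less uniform, with 2 genes lower and 6 higher. Its log2 ratios ran from -0.18 for FANCC to 0.29 for FANCE, which was past 1.2-fold. MSH6, which recognises mismatches, was at 38.1 FPKM with A4368 and 37.4 FPKM in the control. MSH6 overlaps FBXO11 on the opposite strand over 21.0% of its exonic bases. CHEK1, the kinase that restrains the cycle when forks stall, was at 27.9 FPKM with A4368 and 29.1 FPKM in the control (log2 ratio -0.06).

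Set side by side as deposited, the replication genes leaned lower and the repair genes did not. Of the 29 replication genes 24 were lower as deposited, although 15 were lower after the rescaling (39.1% of all genes then were), and their median log2 ratio as deposited was -0.07. Without the 6 MCM ring genes, 18 of 23 were lower as deposited and 9 of 23 after the rescaling, the latter near the share of all genes. The median of these 23 was then 0.02, against 0.06 for all genes. Of the 14 repair genes 3 were lower and 11 were higher, with a median log2 ratio of 0.03. Of all 11238 genes 48.0% were lower and 52.0% higher, with a median log2 ratio of 0.01. The difference of the medians, replication minus repair, was -0.09 log2 units, and -0.06 without the 6 MCM ring genes. It kept its direction under 12 alternatives, between -0.11 and -0.04. Of these, removing the filter on low values and centring all genes on a common median could not change it. The difference is small beside the SD of 0.26 log2 units across all genes, and no test of it is possible with 1 library per group. The repair majority rests on small differences: 7 of 14 were lower under a correction for GC content and transcript length, and 7 of 14 when they were centred on genes of the same level. The summed level was 1388 FPKM with A4368 and 1486 FPKM in the control for replication genes, and 237.9 FPKM with A4368 and 238.5 FPKM in the control for repair genes. The replication genes were also the more abundant, with a median of 21.0 FPKM with A4368 and 23.0 FPKM in the control, while the repair genes had a median of 10.6 FPKM in both libraries.

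**Figure D3:**
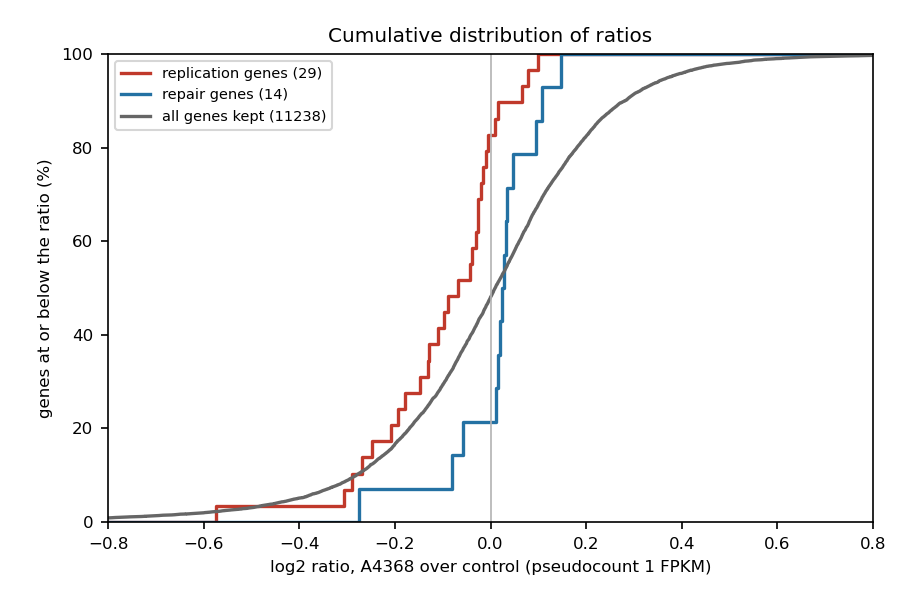
The percentage of genes at or below each log2 ratio of A4368 over control, for 29 replication genes, 14 repair genes and the 11238 genes averaging 1 FPKM or more. The replication curve crosses 0 with 24 of its 29 genes already counted and the repair curve with 3 of its 14, and both are steeper than the curve of all genes.

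Since these proteins work as complexes, the subunits of 13 complexes, 57 genes in all, were compared, members and partners alike. The complexes were chosen with the values known. The MCM ring was the only one in which every subunit was lower, and it stayed so after the rescaling. In 11 complexes the subunits lay on both sides of 0. The ring subunits spanned 0.18 log2 units, which was not the narrowest span. Polymerase alpha with primase spanned 0.14, RPA 0.13 and FANCD2 with FANCI 0.03. The clamp loader spanned 0.46, from RFC2 at 28.4 FPKM with A4368 and 34.6 FPKM in the control to RFC5 at 37.0 FPKM with A4368 and 32.3 FPKM in the control. Polymerase epsilon spanned 0.73 log2 units because of POLE2. The 6 origin recognition subunits had a median of -0.01, and the 3 subunits of RPA, which coats single strands, a median within 0.01 of 0. FANCD2 with FANCI was the set in which every subunit was higher, both by less than 0.05 log2 units. After the rescaling 3 complexes had every subunit higher, with GINS and ribonucleotide reductase added, and 9 lay on both sides of 0. RRM2B, the reductase subunit of non-dividing cells, was at 14.8 FPKM with A4368 and 11.2 FPKM in the control, a log2 ratio of 0.38, unlike RRM1 and RRM2.

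**Figure D4:**
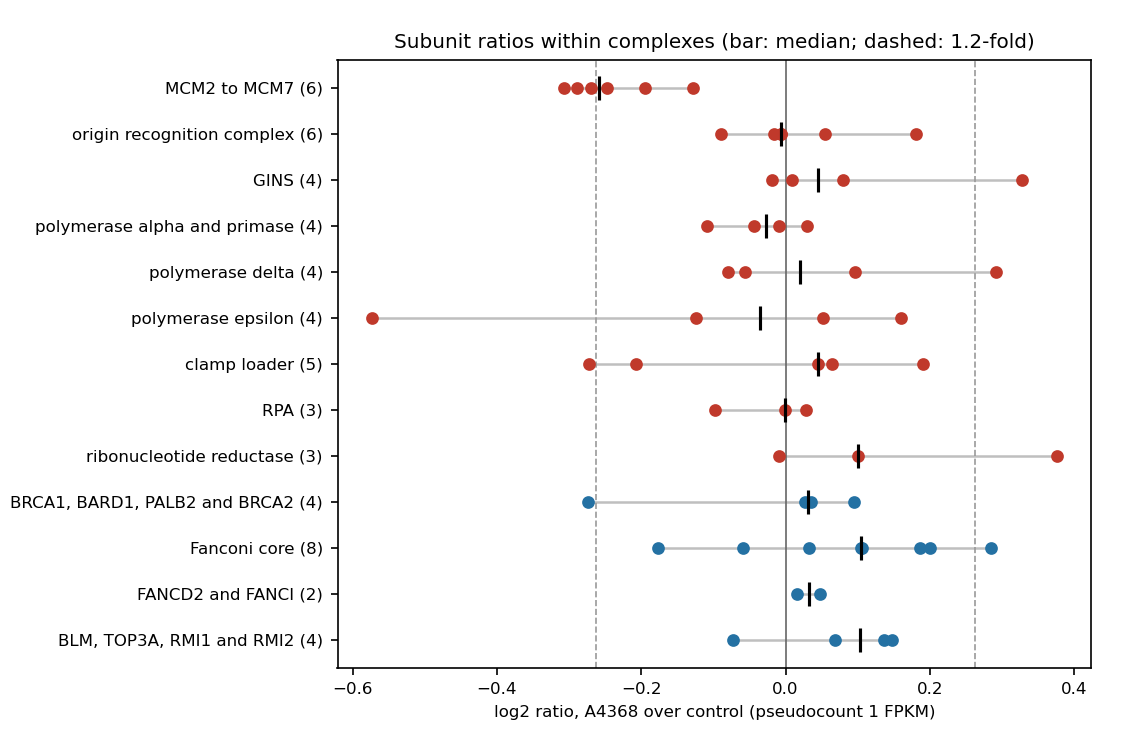
The log2 ratio of A4368 over control for each subunit of 13 complexes, red for replication and blue for repair, with the number of subunits in brackets, a bar at the median and dashed lines at 1.2-fold. The MCM2 to MCM7 points lie between -0.31 and -0.13, while other complexes, some with a narrower span, straddle 0 or lie just above it.

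Other genes of the same processes did not lean lower. Of 55 further replication genes 21 were lower and 34 higher, with a median log2 ratio of 0.05, 2 lower by 1.2-fold and 6 higher. TOP1, the topoisomerase that relieves twist ahead of the fork, and RFC2 had the lowest ratios, TOP1 at 41.1 FPKM with A4368 and 52.6 FPKM in the control. CHTF18, of an alternative clamp loader, had the highest at 13.3 FPKM with A4368 and 8.76 FPKM in the control, and RNASEH2C, of the enzyme that removes ribonucleotides from DNA, was at 44.1 FPKM with A4368 and 30.4 FPKM in the control. Of 63 further genes of homologous repair and the Fanconi pathway 18 were lower and 45 higher, with a median of 0.10, 1 lower by 1.2-fold and 8 higher. The upward shares of both lists were near the 11.2% of all genes. The downward shares, 3.64% and 1.59%, were below the 11.1% of all genes. WRN, a helicase, was at 12.3 FPKM with A4368 and 16.04 FPKM in the control, and the fork remodeller SMARCAL1 at 12.6 FPKM with A4368 and 14.8 FPKM in the control. SWI5, a recombination cofactor, was at 28.2 FPKM with A4368 and 19.1 FPKM in the control. TONSL, which binds newly made chromatin at forks, was at 21.1 FPKM with A4368 and 14.6 FPKM in the control.

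Regulators upstream of S phase held single genes with larger differences than any of the 43. Of 37 genes of G1/S control 20 were lower and 17 higher, with a median within 0.01 log2 units of 0, 5 lower and 4 higher by 1.2-fold, shares close to the 11.1% and 11.2% of all genes. CDKN2D, an inhibitor of CDK4 and CDK6, was at 4.94 FPKM with A4368 and 2.10 FPKM in the control, a log2 ratio of 0.94. CDKN1A, which encodes the inhibitor p21, was at 11.6 FPKM with A4368 and 6.56 FPKM in the control, a log2 ratio of 0.73. These were the 2 genes of the list higher by 1.5-fold, a limit that 1.08% of all genes passed upward. The others past 1.2-fold upward, named after their values were seen, were the inhibitor gene CDKN1C at 210 FPKM with A4368 and 156 FPKM in the control and the pocket protein gene RBL2 at 8.49 FPKM with A4368 and 6.46 FPKM in the control.

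The genes of this list lower by 1.2-fold included both drivers and repressors of the same step. CCND1, the cyclin D1 gene, was at 15.9 FPKM with A4368 and 23.5 FPKM in the control, a log2 ratio of -0.54. E2F5, a repressor E2F, was at 14.3 FPKM with A4368 and 20.8 FPKM in the control, a log2 ratio of -0.51. Named after their values were seen, SKP2, which targets CDK inhibitors for destruction, was at 75.0 FPKM with A4368 and 95.7 FPKM in the control, and CDK4 at 131 FPKM with A4368 and 161 FPKM in the control. E2F8, another repressor, was at 4.25 FPKM with A4368 and 5.78 FPKM in the control. CDK2, the partner of the E cyclins, was within the limit at 47.0 FPKM with A4368 and 50.8 FPKM in the control. Of other drivers, CDK6 was nearly level at a log2 ratio of 0.06 and CCND3 at -0.005. The list also held E2F3 (-0.25), MYBL2 (-0.20) and CCND2 (-0.18), which were lower but within the limit. The inhibitor genes CDKN2A (-0.08) and CDKN2B (-0.02) were not higher, while CDKN2C (0.23) and CDKN1B (0.13) were higher within the limit. These genes too were named after their values were seen.

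**Figure D5:**
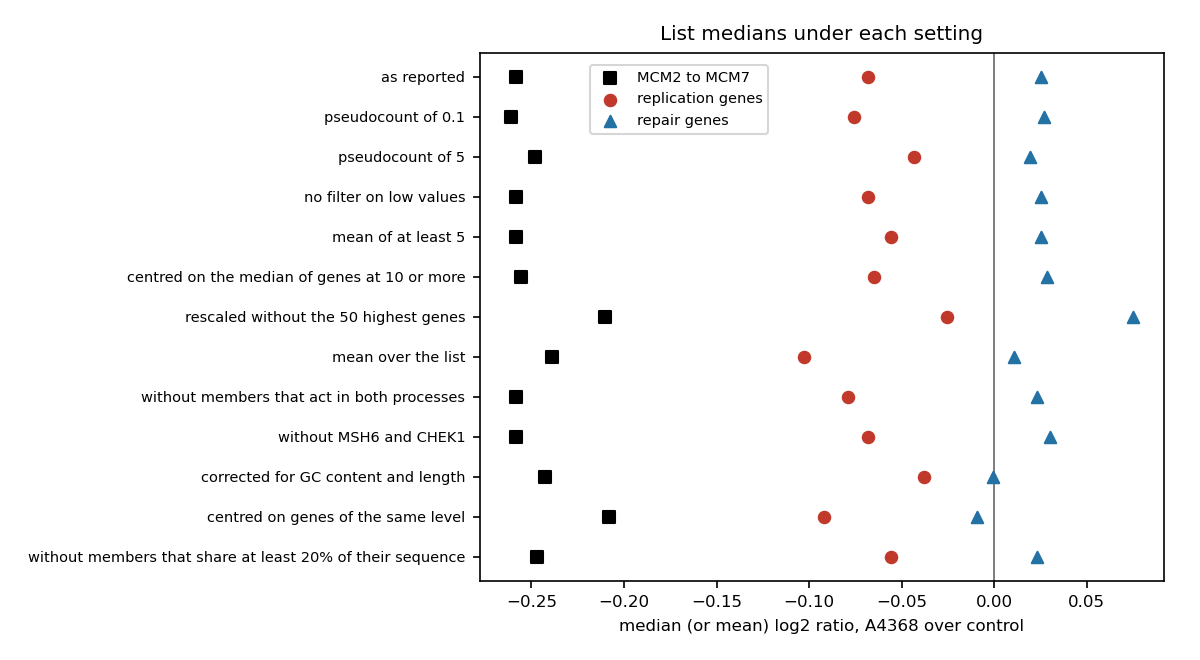
The median log2 ratio (the mean in the row so named) of A4368 over control for the MCM2 to MCM7 genes, the replication genes and the repair genes, as reported and under 12 alternatives. The MCM median stays between -0.26 and -0.21, the replication median between -0.10 and -0.03, and the repair median within 0.08 of 0 on both sides. Alternatives that change only the filter, or leave out only members outside the ring, could not alter the MCM median.

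The labelled cell type was met by its markers: all 10 hepatocyte and hepatoma genes checked had values, summing to 12523 FPKM with A4368 and 13113 FPKM in the control. Of 5 endothelial markers 0 had values, of 6 markers of stellate cells and fibroblasts only LUM did (11.9 FPKM with A4368 and 17.9 FPKM in the control), and of 6 leukocyte markers 3 did, together 39.9 FPKM with A4368 and 50.1 FPKM in the control. Whether those levels have any part in the differences above was not tested. The median over all genes was 13.5 FPKM with A4368 and 13.3 FPKM in the control.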

How the data were processed

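RNA-seq was made from 1 A4368-treated and 1 untreated Hep3B library. The submitters' processing notes name Cufflinks, Bowtie2 2.2.3 and TopHat2 2.0.12, with hg19 as the build. The header of the table deposited by the authors names no unit, so its values were read as FPKM, as Cufflinks writes them. Read depth, strandedness and annotation are not stated in the labels, so no interval or detection floor is given. A symbol with values for both libraries stood on 11511 of 24302 lines, and the 11238 genes averaging 1 FPKM or more were kept.

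The ratio was log2((A4368 + 1)/(control + 1)), with limits of 1.2-fold and 1.5-fold and no test. The members, gene lists, complexes and limits were chosen with earlier results of these data known. Every member was named, and of each other list the 2 highest and 2 lowest ratios; other genes are said to be chosen after their values were seen or stand as subunits or overlapping partners, and some that the rule names are not reported here. Alternatives were 10 planned ones and 3 added after seeing the data, namely a correction of ratios for GC content and length in 20 bins each, centring on genes of the same level in 20 bins, and leaving out 6 members that share at least 20% of their 31-base words with other genes. Shared words, overlaps, GC content and length came from GENCODE release 29 on GRCh38, and 97.4% of kept genes were matched by symbol. Promoter sequences are RefSeq's (GRCh38.p14). The calculation was run on simulated data with planted changes and a narrower spread than the real ratios. That checked the arithmetic and not how reliable the 1.2-fold calls are. Python 3.11.15, numpy 2.4.6, pandas 2.3.3 and matplotlib 3.10.9 were used.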

Additional observations from a re-analysis of the deposited data

How the results depend on the processing

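No paired analysis was possible because there is 1 library per group. Over 12 alternatives the MCM ring median lay between -0.26 and -0.21 and the replication median between -0.10 and -0.03. Removing the filter on low values could change neither. Raising the filter to 5 FPKM could not change the ring median. Nor could leaving out genes that act in both replication and repair, or MSH6 and CHEK1. The repair median lay between -0.01 and 0.07 and was below 0 under 2 of them, the correction for GC content and transcript length and the centring on genes of the same level. The replication minus repair difference was -0.09 as reported and -0.04 with the GC and length correction. Of 341 gene values 340 moved by less than 0.1 log2 units, a margin wider than most of the ratios, so this says little of genes near 0. The exception was POLE2, at -0.44 with a pseudocount of 5. The count of the 43 genes past the limit in either direction was 5 as reported, 3 with a pseudocount of 5, 1 after the rescaling and 0 at a limit of 1.5-fold. For the other lists together, of 55, 63, 54 and 37 genes, that count was 28 as reported and 20 with a pseudocount of 5. It was 41 after the rescaling and 2 at 1.5-fold. Only the downward share of all genes, 9.62%, was computed after the rescaling, and no share was computed with a pseudocount of 5. The counts under those settings therefore cannot be set against all genes. Of all 11238 genes as reported, 11.1% were lower and 11.2% higher by 1.2-fold. By 1.5-fold, 2.12% were lower and 1.08% higher. The rescaling moved the median ratio of all genes by 0.05 log2 units. Unknown depth and single libraries limit every value.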

Other observations

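Repair pathways other than homologous recombination differed little between the libraries. Of 54 measured genes of mismatch repair, end joining, base and nucleotide excision and translesion synthesis, 29 were lower and 25 higher with A4368. Their median log2 ratio was -0.02, and 1 passed the limit of 1.2-fold in each direction. Of all genes, 11.1% were lower and 11.2% higher by that limit. XRCC5, which encodes the Ku80 subunit that binds broken ends, was at 191 FPKM with A4368 and 233 FPKM in the control. NHEJ1, which encodes an end-joining factor, was at 12.9 FPKM with A4368 and 10.3 FPKM in the control. The uracil glycosylase gene UNG was at 35.0 FPKM with A4368 and 41.1 FPKM in the control.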
